A study of Mus musculus with 8 samples.

Results

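The RNAs encoded by the mitochondrial genome were examined in CLIP-seq peaks (sequencing of the RNA that is crosslinked to a protein and pulled down with it) of MBD5 and MBD6, a pair of related proteins with a methyl-CpG-binding domain. The members were all peaks on chrM, each given to a mitochondrial gene by its strand and its midpoint with GENCODE release vM21 on the mouse build mm10. There were 46 such peaks of 29555 in all. The rule names 10 mitochondrial genes, and 8 of these 10 held the midpoint of a peak on their own strand. The series holds 8 samples, of which the 4 CLIP libraries carry peak lists, and the 4 inputs were not analysed here as samples of their own.

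Both cell lines compared were wild-type mouse embryonic stem cells (mESCs) that stably overexpressed a human coding sequence behind a Flag tag, MBD5 in Flag-MBD5 CLIP and MBD6 in Flag-MBD6 CLIP, with 2 libraries each. All cells carried a hygromycin selection, were kept with LIF and the inhibitors CHIR99021 and PD0325901, and were passaged without feeder cells before use. These are overexpressed human proteins in mouse cells, and no immunoprecipitate from untagged cells was analysed here. The sample characteristics name a Flag antibody, whereas the extraction protocol names one against MBD6. Libraries are given in the order of Flag-MBD5 replicates 1 and 2 and Flag-MBD6 replicates 1 and 2. Peaks lay in 4, 4, 6 and 7 of 10 stem cell marker genes and in 0 of 6 feeder fibroblast marker genes in each library. Of all protein-coding genes, 10.1%, 9.9%, 16.2% and 16.5% held a peak. With shares this low, 0 of 6 genes does not tell whether feeder cells were present. A peak is not a level of expression.

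The mitochondrial genome is a small circle transcribed from both strands into long precursors, which are cut into rRNAs, tRNAs and mRNAs inside the organelle. Its mRNAs encode core subunits of the respiratory chain and of ATP synthase, and its rRNAs form the mitochondrial ribosome. All of its mRNAs except mt-Nd6 have the sequence of the plus strand. These RNAs are abundant in many cells, and they are made apart from the nucleus.

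The sequence at the 5′ end of a peak is shown for the sites the results turn on, because RNase T1, which trimmed the RNA, cuts after G. Each line gives 30 bases of the GENCODE transcripts on mm10, and the capital is the base just before the first base of the peak in the library with the most summit reads there. The mt-Co2 site had the best mean fold enrichment of the plus strand and of complex IV among sites found in all 4 libraries, and the mt-Nd1 site that of complex I. The mt-Rnr2, mt-Cytb and mt-Nd6 sites were added after their values were seen, as the site with the most reads, whose 5′ end lies in mt-Rnr1, and as sites found in Flag-MBD6 libraries only.
mt-Co2, plus strand, chrM:7143-7172: taatattaaCaacaaaactaacacatacaa
mt-Nd1, plus strand, chrM:3472-3501: tcttcctagGacccctatactatatcaatt
mt-Rnr2 site, plus strand, chrM:120-149: aaacctccaTagaccggtgtaaaatccctt
mt-Cytb, plus strand, chrM:14736-14765: ctcttcctcCacgaaacaggatcaaacaac
mt-Nd6, minus strand, chrM:13773-13802: gttttttagTattgggggtgattatagagg

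Of these 5 starts, 1 followed a G. Over all mitochondrial peaks with sequence, 13 of 45 began just after a G, or 28.9%. Among nuclear peaks with transcript sequence the share was 75.3%. Among those with a background rate of at least 9.19 reads, the lowest mitochondrial rate, it was 45%. This cut does not match the nuclear to the mitochondrial peaks in rate. G is also rare in these RNAs, at 12.6% of the bases of the plus-strand genes. The 45 peaks fall on few sites and share them between libraries, so these shares are a description.

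Flag-MBD5 replicates 1 and 2 held 9 and 8 mitochondrial peaks, and those of Flag-MBD6 held 14 and 15. These were 0.168% (95% Wilson interval 0.0883 to 0.319), 0.148% (0.0753 to 0.293), 0.152% (0.0905 to 0.255) and 0.156% (0.0948 to 0.258) of each library's peaks. The intervals of the 4 libraries overlapped. They cover counting error only and treat peaks as independent, so no conclusion about a difference between libraries is drawn from them. The share also depends on the length of the peak list. With equal numbers of peaks in each library it was 0.159% for Flag-MBD5 and 0.233% for Flag-MBD6. Mitochondrial genes make up 0.0118% of the annotated exon bases.

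The reads over each summit, and the background rate that the peak caller expected there, were solved from the deposited fold enrichment and p-value. Estimated library totals were 478796 and 500149 reads in the Flag-MBD5 replicates, and 983928 and 1111748 reads in those of Flag-MBD6. The replicates differed about as much as sampling noise or less at the 8 mitochondrial sites found in all libraries, with a chi-square per degree of freedom of 0.455 for Flag-MBD5 and 1.33 for Flag-MBD6. At nuclear sites of at least 60 reads it was 0.519 and 0.858. Across the proteins it was between 24.8 and 34.8 at the mitochondrial sites and between 9.89 and 15 at 461 nuclear sites. The mitochondrial values include the ribosomal RNA site, with 565, 580, 605 and 597 summit reads in libraries of unequal depth. These level counts lay near the limit of 750 reads that is described below. The chi-square was not computed without this site. No larger difference between the proteins at mitochondrial than at nuclear sites is therefore concluded. By the chi-square the replicates were not told apart from repeated counting of 1 sample, which does not show that they were 1. Each protein was counted as 1 sample as a precaution, no test between the proteins was made, and values are given for each library. With 2 libraries against 2, an exact two-sided permutation test could not go below 0.333 in any case.

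The 46 peaks merged into 15 sites, 11 on the plus strand and 4 on the minus strand. The same 8 sites, all on the plus strand, were found in all 4 libraries. They lay in the rRNAs and in mt-Nd1, mt-Nd2, mt-Co1, mt-Co2, mt-Co3 and mt-Nd5. The other 7 sites were found in Flag-MBD6 libraries only, 5 of them in both and 2 in 1 library. Of all 46 peaks, 40 lay in sense of a gene, 5 lay only antisense to one, and 1 lay outside any gene.

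**Figure D1:**
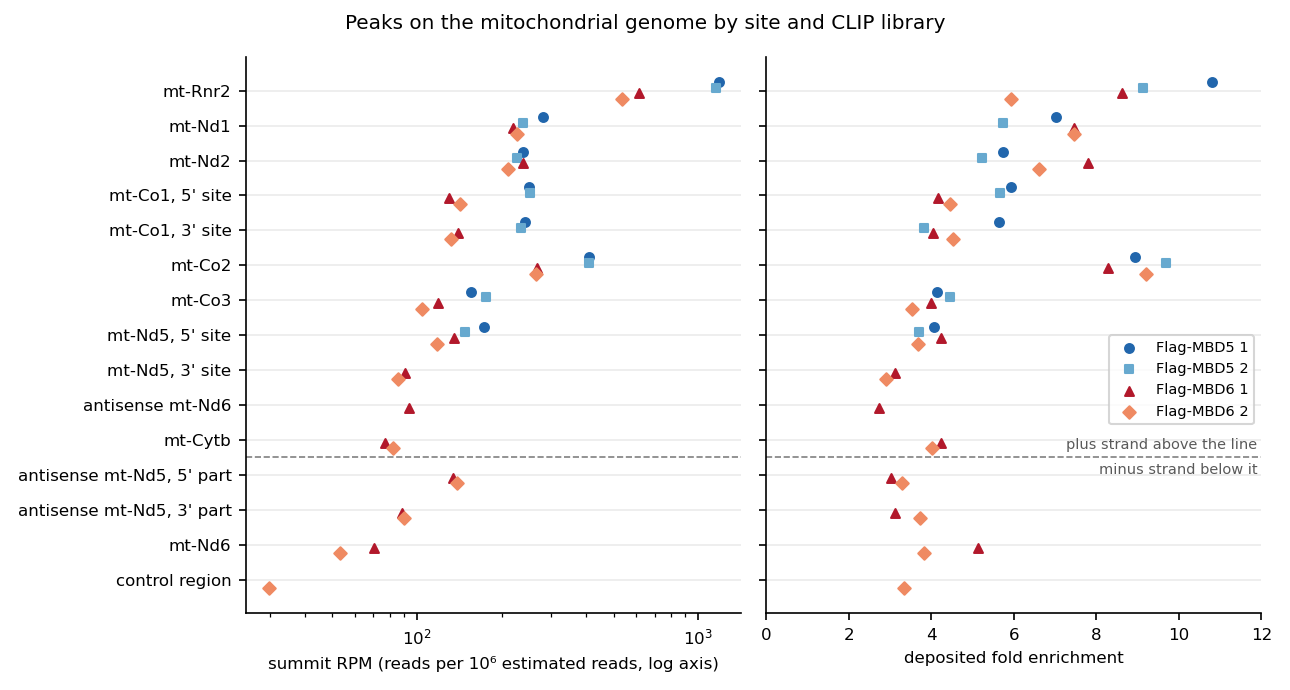
Summit reads per 1000000 estimated reads (RPM, left, log axis) and deposited fold enrichment (right) of the 15 mitochondrial sites in the 4 CLIP libraries, with 1 symbol per library and sites in genome order within each strand. The upper 8 sites carry all 4 symbols, the minus-strand sites carry Flag-MBD6 symbols only, and the ribosomal RNA site lies furthest to the right in reads.

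The largest site lay over the ribosomal RNAs. mt-Rnr2 (ENSMUSG00000064339.1, chrM:1094-2675), which encodes the 16S rRNA of the large mitochondrial ribosomal subunit, held the midpoint of 1 peak in every library. This peak was 2660, 2632, 2664 and 2624 bp wide in the 4 libraries. It covered 100% of mt-Rnr2 and between 89.6% and 93.7% of mt-Rnr1 (ENSMUSG00000064337.1, chrM:70-1024), the gene of the 12S rRNA, which held no midpoint of its own. Its signal can therefore not be given to 1 of the 2 rRNAs.

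At the summit of the ribosomal RNA peak there were 565, 580, 605 and 597 reads. The counts were nearly level, although the Flag-MBD6 libraries held more reads in all. The peak ranked second by summit reads in every library. At most 5 reads per position and strand were kept and each was extended to 150 bp, so no summit could hold more than 750 reads, and the 4 values were 75.3%, 77.3%, 80.7% and 79.6% of that. The highest count of any peak, at a nuclear site, was likewise level at 598, 609, 606 and 630 reads.

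The fold enrichment of the ribosomal RNA peak was 10.8, 9.14, 8.62 and 5.92. The lowest value went with the highest background rate, 100 reads, against 51.5, 62.6 and 69.3 reads in the other libraries. Reads of rRNA had been removed before alignment, per the study's methods, but which rRNAs that step covered is not given in the sources used here.

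Complex I, the NADH dehydrogenase, was represented by mt-Nd1, mt-Nd2 and mt-Nd5 in all libraries. The mt-Nd1 site (gene chrM:2751-3707) had 134, 119, 215 and 252 summit reads and a fold enrichment of 7.02, 5.73, 7.47 and 7.46. The mt-Nd2 site (gene chrM:3914-4951) had 114, 113, 234 and 233 reads and a fold enrichment of 5.74, 5.22, 7.81 and 6.62. Reads were higher in the deeper Flag-MBD6 libraries at both, as at every site found in all libraries. Scaled to reads per 1000000 estimated reads (RPM), mt-Nd1 had 280, 238, 219 and 227 and mt-Nd2 had 238, 226, 238 and 210, which was not higher in Flag-MBD6. Peaks covered 21.1% to 25.9% of mt-Nd1 and 20.7% to 23.4% of mt-Nd2.

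mt-Nd5 (chrM:11742-13565) carried a site in its 5′ part with 83, 74, 133 and 131 reads at a fold enrichment of 4.06, 3.7, 4.23 and 3.68. A site further 3′ was found in Flag-MBD6 only, with 89 and 95 reads at a fold enrichment of 3.13 and 2.89. mt-Nd4 (chrM:10167-11544), another complex I subunit, held no peak, and 0% of its bases lay in a peak in any library. The peak lists do not show whether reads lay there below the caller's threshold.

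Complex IV, cytochrome c oxidase, takes its core subunits from mt-Co1, mt-Co2 and mt-Co3, and all of these genes held peaks in every library. The mt-Co2 site (gene chrM:7013-7696) was the strongest mRNA site, with 195, 204, 264 and 295 reads and a fold enrichment of 8.94, 9.7, 8.29 and 9.2. Its fold enrichment overlapped between the proteins. mt-Co1 (chrM:5328-6872) was covered over 87% to 90.7% of its length by a wide 5′ site and a 3′ site.

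The 5′ site of mt-Co1 had 120, 126, 128 and 158 reads at a fold enrichment of 5.93, 5.67, 4.17 and 4.45, which was higher in both Flag-MBD5 libraries. The 3′ site had 116, 117, 138 and 147 reads at a fold enrichment of 5.65, 3.81, 4.04 and 4.53. There the Flag-MBD5 replicates held nearly the same reads, and their background rates were 19.7 and 30. The mt-Co3 site (gene chrM:8607-9390) had 74, 88, 117 and 116 reads at a fold enrichment of 4.14, 4.46, 4 and 3.53, and was split into 2 peaks in Flag-MBD5 replicate 1 and Flag-MBD6 replicate 2.

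**Figure D2:**
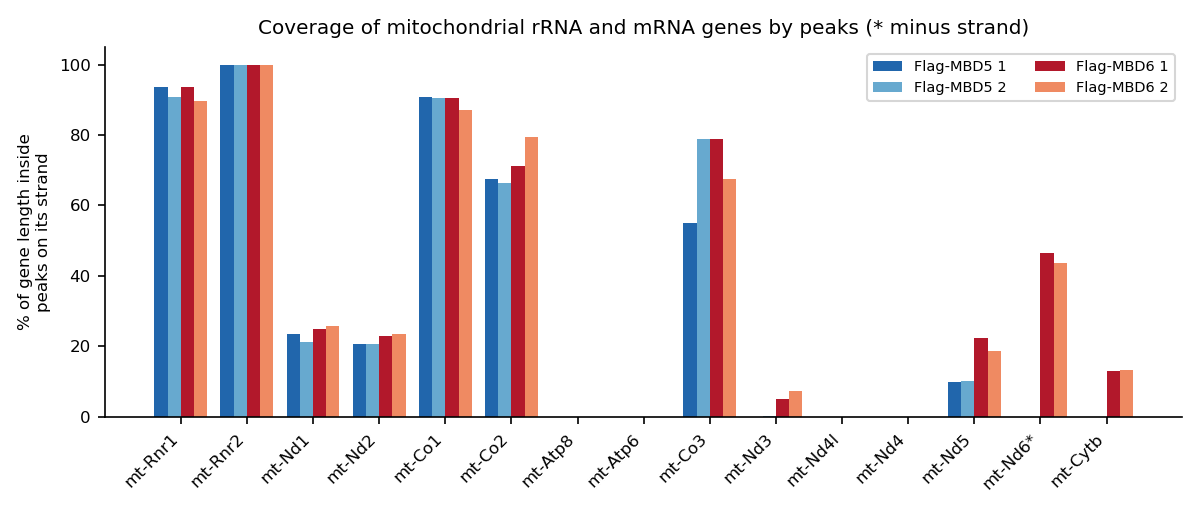
Percent of the length of each mitochondrial rRNA and mRNA gene (x axis, genome order) that lay inside peaks on its strand, with 1 bar per CLIP library. mt-Rnr1, mt-Rnr2 and mt-Co1 were covered over most of their length in all 4 libraries, mt-Cytb and mt-Nd6 only in the Flag-MBD6 libraries, and mt-Nd4 in none.

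Complex III was represented by mt-Cytb (chrM:14145-15288), which encodes cytochrome b, in the Flag-MBD6 libraries only. Its site had 76 and 91 reads at a fold enrichment of 4.23 and 4.02, and it began at the same base in both. mt-Nd6 (chrM:13552-14070), the complex I subunit on the minus strand, is not among the 10 genes but held a peak in both Flag-MBD6 libraries, with 69 and 59 reads at a fold enrichment of 5.12 and 3.81.

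Another 4 sites lay outside the sense strand of any gene, all in Flag-MBD6. On the minus strand, the site antisense to the 5′ part of mt-Nd5 had 132 and 154 reads at a fold enrichment of 3.03 and 3.28. A further one, antisense to its 3′ part, had 87 and 100 reads at 3.11 and 3.73. The remaining sites were each found in 1 library, antisense to mt-Nd6 with 92 reads and a fold enrichment of 2.74, and in the control region with 33 reads and 3.34. The light-strand transcript from which mt-Nd6 is cut also spans the antisense of mt-Nd5.

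The sites found in Flag-MBD6 only had 33 to 154 reads and a fold enrichment of 2.74 to 5.12. Their range of reads overlapped that of sites found in all libraries, since the site antisense to the 5′ part of mt-Nd5 held more reads than that of mt-Co3. Scaled to the mean depth of the Flag-MBD5 libraries, the 5 sites found in both Flag-MBD6 libraries would hold between 26 and 67.8 reads. The lowest mitochondrial peak called in Flag-MBD5 held 71 reads, which is above that range. The peak lists do not show the reads of Flag-MBD5 at these places, so a difference between the proteins there was not tested.

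By gene class, 6, 6, 8 and 8 of the 13 mRNA genes held a midpoint, where 10.1%, 9.9%, 16.2% and 16.5% of all protein-coding genes did. Of the 2 rRNA genes 1 held a midpoint in every library, and of the 22 tRNA genes 0 did, though peaks of neighbouring genes reached 3, 5, 4 and 5 of them. No peak had its midpoint in mt-Atp6, mt-Atp8, mt-Nd3 or mt-Nd4l. Peaks covered 38.7%, 40.2%, 43.8% and 42.6% of the annotated plus-strand bases. On the minus strand they covered 0%, 0%, 22.6% and 21.3%, and over nuclear exons 0.608%, 0.61%, 1.04% and 1.09%.

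Mitochondrial peaks held many reads but stood little above their background. Their median summit reads were 116, 118, 130 and 131, against 16, 16, 20 and 21 for nuclear peaks. Their median fold enrichment was 5.74, 5.45, 4.2 and 3.81, against 10.4, 10.5, 10.9 and 11.2 for nuclear peaks. In the 4 libraries 8 of 9, 8 of 8, 14 of 14 and 15 of 15 mitochondrial peaks lay below the nuclear median.

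A fold enrichment under 5 was found for 3 of 9 mitochondrial peaks in Flag-MBD5 replicate 1, where 2.18% of all peaks were that low, and for 3 of 8 in replicate 2, where 1.97% were. In the Flag-MBD6 libraries 9 of 14 and 11 of 15 were under 5, against 1.93% and 2.12% of all peaks. The low fold enrichments stood far more often among the mitochondrial peaks than in the peak lists as a whole. This contrast is not matched by background rate. The 5th percentile of nuclear peaks was 6.32 at Flag-MBD5 rates under 0.5 and 3.47 at rates of 8 to 16. In Flag-MBD6 it was 6.56 at rates of 0.5 to 1 and 2.56 at rates of 16 to 32. Peaks of low rate were thus seldom called with a fold enrichment under 5, and no conclusion is drawn from the contrast.

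The background rates differed in the opposite sense to the fold enrichments. Their median was 19.7, 20.5, 29.5 and 32.2 reads at mitochondrial peaks and 0.393, 0.42, 0.611 and 0.69 reads at nuclear peaks. Every mitochondrial peak except 1, the control-region peak, had a rate above the 99th percentile of its library. The rates lay on the even steps that whole reads of a scaled control library give, within 0.02 of a step for windows of 150 bp and 1 kb and 0.05 for 10 kb, where a step is small. For 22 peaks the rate came from the 150 bp around the summit, with a median of 57.5 control reads, for 7 from 1 kb and for 17 from 10 kb. Of the rates of all peaks above the lowest one, 59.3% to 72.7% by library and strand lay on the 150 bp step.

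Nuclear peaks with rates of at least 9.19 reads, the lowest mitochondrial rate, numbered 55, 50, 104 and 132. Their median fold enrichment was 6.53, 6.94, 6.03 and 5.68, and so also lay below that of all nuclear peaks. The mitochondrial median fold enrichments were lower than those of this nuclear set in each library. The median rates of the set were 13.7, 13.5, 13.7 and 13.4 reads, below the mitochondrial medians given above. The peaks compared are thus not matched by rate, and the part of the control signal in the difference of fold enrichment was not tested.

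**Figure D3:**
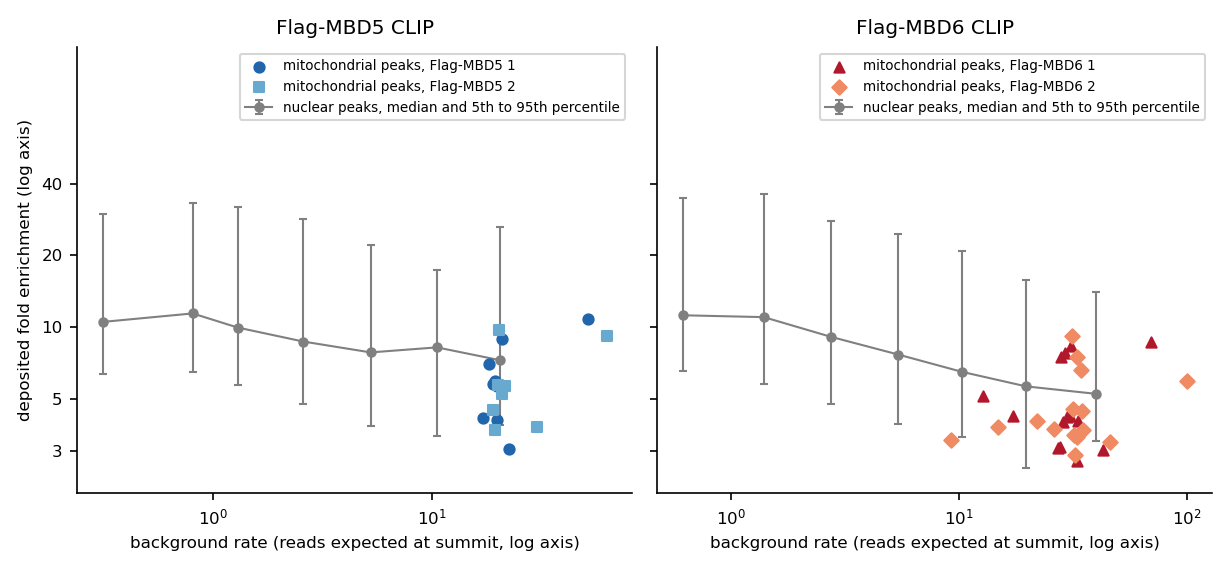
Deposited fold enrichment (y, log axis) against the background rate in reads expected at the summit (x, log axis), for Flag-MBD5 (left) and Flag-MBD6 (right). Coloured symbols are the mitochondrial peaks of each library, and grey points and bars are the median and the 5th to 95th percentile of nuclear peaks in bins of the rate that hold at least 20 peaks. Mitochondrial peaks sit at the right end of the rates, most of them under the grey medians.

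Mitochondrial peaks recurred between replicates. All 9 and all 8 peaks of the Flag-MBD5 libraries overlapped a peak of the other replicate, against 75.5% and 74.9% of all peaks. In the Flag-MBD6 libraries 13 of 14 and 14 of 15 did, against 81.9% and 78.6%. The lower bounds of the Wilson intervals, at 70.1%, 67.6%, 68.5% and 70.2%, all lay below these background shares. A peak in either library of the other protein was met by 9 of 9 and 8 of 8 Flag-MBD5 peaks, against 90.2% and 90.3% of all peaks, and by 8 of 14 and 9 of 15 Flag-MBD6 peaks, against 58.2% and 56.5%.

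Regions found in both replicates numbered 8 on chrM for Flag-MBD5 and 13 for Flag-MBD6. All 8 of the Flag-MBD5 regions overlapped a Flag-MBD6 region, against 90% of all Flag-MBD5 regions. Of the 13 Flag-MBD6 regions 8 overlapped a Flag-MBD5 region, or 61.5% (35.5 to 82.3), against 47.7% of all Flag-MBD6 regions. Both shares were near those of all regions.

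At the 8 sites found in every library the proteins were compared by summit RPM, the summit reads per 1000000 estimated reads. The median log2 ratio of Flag-MBD6 to Flag-MBD5 was -0.59, and -0.49 and -0.69 in the pairs of replicates 1 and 2. The mean ratio was below 0 at 8 of 8 sites. Nuclear sites also had a median below 0, of -0.33 over 3558 sites, and 2565 of them were below 0. Among the 179 nuclear sites with at least as many Flag-MBD5 reads as the lowest mitochondrial site the median was -0.67, and 178 were below 0. These 179 sites were picked by Flag-MBD5 reads, the denominator of the ratio, which in itself favours low ratios. They are therefore not a matched set for the mitochondrial sites.

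The ratio was lowest at the ribosomal RNA site, at -0.94 and -1.11 in the pairs, where 1180, 1160, 615 and 537 RPM were found. Its summit reads were level across the libraries and near the limit of 750, so this ratio is close to the ratio of the depths. The 6 nuclear sites with at least 400 Flag-MBD5 reads, also picked by the denominator of the ratio, had a median of -0.98, from -1.06 to -0.95. It was nearest to 0 at mt-Nd2, at -0.00 and -0.11, with 238, 226, 238 and 210 RPM. A change of over 2-fold lower in both pairs was met by 0 of the 8 mitochondrial sites, against 6.09% of all sites, and over 2-fold higher by 0, against 0.421%. By deposited fold enrichment the median log2 ratio was -0.10, with values from -0.48 at the ribosomal RNA site to 0.39 at mt-Nd2. On that scale the median was 0.41 over all nuclear sites and -0.12 over the 179 nuclear sites with as many reads. The sites of mt-Nd1 and mt-Nd2 were higher in Flag-MBD6 in both pairs by fold enrichment, at 0.09 and 0.38 and at 0.44 and 0.34, and not by RPM.

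**Figure D4:**
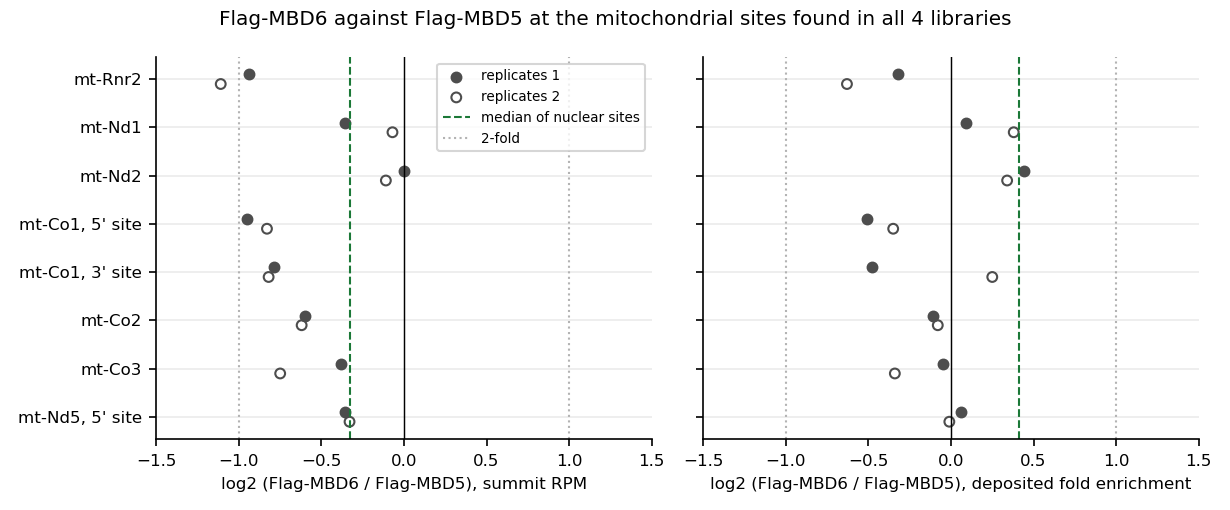
Log2 ratio of Flag-MBD6 to Flag-MBD5 at the 8 mitochondrial sites found in all libraries, by summit RPM (left) and by deposited fold enrichment (right). Filled and open points are the pairs of replicates 1 and of replicates 2, the dashed line is the median of 3558 nuclear sites and dotted lines mark a 2-fold difference. The points of the ribosomal RNA site and of mt-Co1 lie furthest to the left by reads, and no site lies past 2-fold in both pairs.

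Reads from a stretch of the mitochondrial genome can also align to the nucleus. A copy of chrM:6381-11042 lies on the minus strand of chr1:24611535-24616197, and the annotation splits it into 6 genes. Its copies of mt-Co2 (Gm28661), mt-Co3 (Gm28437), mt-Atp6 (Gm10925) and the copied part of mt-Nd4 (Gm28439) were 100% identical to the mitochondrial sequence. The copy of mt-Nd3 (Gm28438) was 99.7% and that of the 3′ part of mt-Co1 (Gm29216) 98.8% identical. The authors' alignment allowed 3 mismatches and reported 1 best place for a read that fitted up to 10.

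The copy held 16 peaks, 4, 3, 5 and 4 in the libraries. Of these, 14 lay over the copies of mt-Co1, mt-Co2 and mt-Co3 or the adjoining tRNA, where the same library also had a mitochondrial peak. They held 42.2% to 64.4% as many summit reads as the mitochondrial peak. At the copy of mt-Co2 these were 115, 110, 170 and 166 reads at a fold enrichment of 11.6, 11.8, 13 and 8.34. The reads of the mt-Co1 3′, mt-Co2 and mt-Co3 sites are therefore divided between chromosomes and uncertain, while those of the rRNAs, mt-Nd1, mt-Nd2, mt-Nd5 and mt-Cytb lie outside the copied stretch. Other nuclear copies were not searched for. The identical copy also spans mt-Atp6 and part of mt-Nd4, so their lack of peaks is uncertain in the same way. mt-Atp8, mt-Nd3 and mt-Nd4l lie within the copied stretch as well, so their lack of midpoints is uncertain too. Most of mt-Atp8 and mt-Nd4l was not compared with the copy in sequence. The other 2 peaks lay antisense to the copies of mt-Co1 and mt-Nd4, in Flag-MBD6 replicate 1 only, with 39 and 59 reads and no mitochondrial peak at the same place. The peaks on the copy are counted as nuclear in the comparisons above, and some of them had background rates of at least 9.19 reads. The nuclear sites found in all libraries likewise include 3 on the copy.

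The same respiratory complexes have subunits whose mRNAs come from the nucleus. Of 20 such genes, 7, 6, 7 and 8 held a peak, where 10.1%, 9.9%, 16.2% and 16.5% of all protein-coding genes did, with a median fold enrichment of 8.87, 9.96, 9.84 and 10. Cox4i1, a nuclear subunit of complex IV, had a best fold enrichment of 17.1, 17.5, 14.8 and 14.8, above that of mt-Co2 in every library, while Cox5a, Cox5b and Cox6c of the same complex held no peak in any. Atp5b, the catalytic subunit of ATP synthase, had 4, 4, 3 and 4 peaks, whereas mt-Atp6 and mt-Atp8, the mitochondrial subunits of that enzyme, had none. Both of these lie in the stretch copied to the nucleus, so their lack of peaks is uncertain.

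Of 15 nuclear genes for the synthesis and handling of mitochondrial RNA, 4, 2, 6 and 8 held a peak. The higher counts in Flag-MBD6 went with its longer peak lists and the higher shares of all genes given above. Those found in all libraries were Trmt10c, part of the mitochondrial tRNA-processing enzyme, and Ptcd3, a mitochondrial ribosomal protein. Trmt10c had a best fold enrichment of 8.4, 7.75, 18.4 and 22.6, and Ptcd3 one of 8.99, 8.96, 7.81 and 7.7. Fold enrichments of different genes do not compare the levels of their RNAs.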

How the data were processed

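Per the study's methods and the labels, the authors collapsed identical reads, kept those longer than 15 nt, removed rRNA reads, aligned the rest to mm10 with Bowtie 1.0.0, split strands with SAMtools 1.16.1 and called peaks per library with MACS2 (version 2) at q under 0.01. The deposited lists give a score, the fold enrichment as a ratio at the summit, and −log10 p and q values. The deposited summit offset is another column. The control is not named in the sources used here.

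Summit reads and background rate were solved as the whole number and Poisson rate that give both the fold and the p-value, which worked for 100% of peaks and was tested on simulated data. The lowest rate times the genome size of 130000000 over 150 gave the estimated totals. Depth limits which weak sites could be called. Sharing required 1 bp on the same strand. No library was left out, and the inputs were not used. Members, lists and the rule for printed sites were chosen with earlier results of these data known. That rule took all 10 genes and, for sequences, the best mean fold per strand and complex. Python 3.11.15, numpy 2.4.6 and scipy 1.17.1 were used. Alternatives covered the q and fold thresholds, equal numbers of peaks, strand, overlap, the assigned position, the nuclear copy, scaling, pairing and leaving out each library.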

Additional observations from a re-analysis of the deposited data

How the results depend on the processing

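Of 74 values recomputed under settings other than leaving out a library, 67 stayed within their limits, which were a factor of 1.5 for counts, the counting interval for shares and the spread of replicates for medians. With a fold enrichment of at least 4, the Flag-MBD6 libraries kept a mean of 8 mitochondrial peaks, 0.0855% of their peaks, in 7 regions, at a median fold enrichment of 5.52. With equal numbers of peaks in each library, the Flag-MBD6 share was 0.233%, since other peaks were removed. The median log2 ratio of Flag-MBD6 to Flag-MBD5 was -0.25 when scaled by the median ratio at nuclear sites and -0.10 by the deposited fold enrichment, an alternative chosen after seeing the data. The replicate numbers name libraries and were not stated to mark a shared day or batch. With replicate pairs as a block that ratio was -0.59, as without them. Averaging over pairs fixes this value, so that setting could not change it. The stricter q of 1e-05 could remove no mitochondrial peak, as their lowest −log10 q was 6.03. The 67 kept values include those of both settings. No paired analysis was possible because these results come from no test, by the choice to count each protein as 1 sample. Leaving out each library moved the ratio between -0.64 and -0.54 and no value past its limits, and without a library the share of peaks found again in the replicate cannot be given for that protein. Depth limits the weak sites, and neither the rRNA reads that had been removed nor reads below the calling threshold could be seen in the peak lists.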
